A study of Mus musculus with 2 samples.

Results

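The genes described here were 10 members of the interleukin-1 (IL-1) family and the inflammasome: the cytokine genes *Il1b*, *Il1a*, *Il1f9* and *Il18*, the genes of the inhibitors *Il1rn*, *Il1r2* and *Il18bp*, the accessory receptor gene *Il1rap*, and the sensor and protease genes *Nlrp3* and *Casp1*. They were taken from a fixed list, which was chosen with earlier results of these data known. All 10 were among the 32285 genes of both single-cell count tables. The cells came from colonic polyps of C57BL6/J mice, 26 weeks old by the labels, that had received the carcinogen azoxymethane (AOM) and 3 cycles of the colitis-inducing agent dextran sodium sulfate (DSS) at 1%, and were taken 16 weeks after AOM. One library held pooled CD11b+ and CD11c+ sorted cells of 5 wild-type (WT) mice, and the other those of 4 KO mice, which lack *Clec7a*, the gene of the β-glucan receptor Dectin-1, in all cells (Clec7a-/-, backcrossed for 9 generations). *Clec7a* itself was not analysed here, so the genotype was not checked in the counts. With 1 pooled library per genotype there was no replicate: no difference between libraries was tested, and all 95% intervals cover counting error only.

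IL-1α and IL-1β signal through a receptor that pairs with the accessory chain encoded by *Il1rap*, while the receptor antagonist (*Il1rn*) competes for that receptor and the decoy receptor (*Il1r2*) binds IL-1 without signalling. IL-1β and IL-18 are made as inactive precursors that caspase-1 (*Casp1*) cleaves after it is recruited to an inflammasome, whose best-known sensor is NLRP3, and IL-18-binding protein (*Il18bp*) neutralises IL-18. *Il1f9* encodes IL-36γ, which also signals through a receptor with the *Il1rap* chain. In the inflamed colon, myeloid cells are a main source of IL-1β, and the epithelium is a known source of IL-18.

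The WT library held 3467 barcodes with 15869215 unique molecular identifiers (UMIs, each a counted RNA molecule), and the KO library 3080 barcodes with 11808230. After the filter on cells, 2696 WT and 1999 KO cells were left, with a median of 3412.5 and 2671 UMIs. They fell into 15 clusters, of which 11 held at least 50 cells in each library. None of the 10 genes was used to form the clusters. Cluster 1 was neutrophil-like (13 of 14 neutrophil markers, led by *Ngp* and *Retnlg*; 500 WT and 91 KO cells). Cluster 0 was monocyte-like (10 of 12 monocyte markers, led by *Chil3* and *Ly6c2*). Cluster 5 (led by *Ccl24* and *Mmp19*) was named monocyte-like too, on a weaker match of 4 of the 12 genes on the monocyte list. These were *Ccl24*, *Mmp19*, *Fn1* and *Sdc1*, while *Ly6c2* and *Chil3* did not pass. Whether its cells were monocytes was not tested, and it is called a monocyte cluster below in this sense only. Clusters 3 and 7 were macrophage-like, clusters 2, 8 and 10 dendritic cell (DC)-like, and cluster 9 T-cell-like, outside the intended sort. Cluster 4, led by *Prok2*, had 8 of 14 neutrophil markers but none among its 10 leading genes, and was left unnamed for that reason. Its cells were also shallow, with a median of 1129.5 UMIs in WT and 903 in KO. The limits that make 1 in 3 of the library medians were 1137.5 and 890.3, so only WT was under its limit. Cluster 6, which had 9 of 14 neutrophil and 6 of 12 monocyte markers, was left unnamed as well. Of all barcodes, 17 occurred in both libraries, 6 of them among the kept cells.

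In all kept cells, 6 of the 9 genes with at least 100 UMIs were at least 1.5-fold lower in the KO library, and none was at least 1.5-fold higher. Over all 8470 genes with at least 100 UMIs, 5.7% were lower and 10.2% were higher by that fold. The median log2 ratio of the KO over the WT library was -0.82 for the members and 0.13 for all genes. Because the members were chosen with earlier results of these data known, these values only describe the list. The 6 lower genes were *Il1b*, *Il1a*, *Il1f9*, *Il18bp*, *Nlrp3* and *Il1rap*. The other 3 were *Il1rn*, *Il1r2* and *Casp1*, and *Il18* had too few UMIs to be counted. In such a sum over all cells, fewer cells of a type and less RNA of a gene per cell cannot be told apart, and neutrophil markers moved with it: the summed level of the 14 markers was 9634 CPM (UMIs per 1000000 UMIs) for WT and 3031 CPM for KO cells. Without clusters 1, 4 and 6, which carry these markers, 3 of 9 genes were at least 1.5-fold lower (*Il1a*, *Il18bp* and *Nlrp3*), against 4.25% of all genes.

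**Figure D1:**
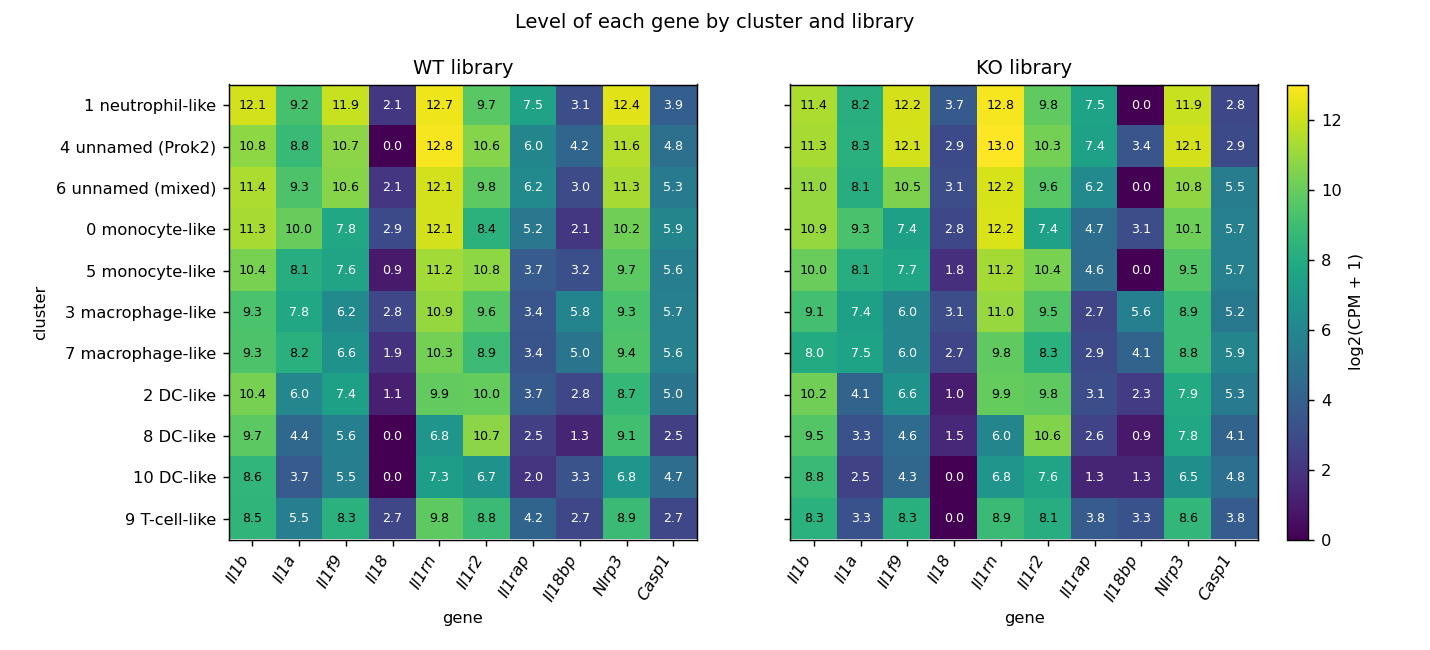
Level of the 10 genes, as log2(CPM + 1), in the 11 clusters with at least 50 cells in each library, for the WT library (left) and the KO library (right). *Il1f9* and *Nlrp3* are brightest in clusters 1, 4 and 6, *Il1b* and *Il1rn* are bright there and in cluster 0, *Il1r2* is high in clusters 4, 5 and 8, and *Il18* is dark throughout.

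*Il1b*, the gene of the precursor of IL-1β, was the most widely expressed cytokine gene of the family in these cells. Its level was 1690 CPM (1667 to 1713) in the WT library and 959.9 CPM (938 to 982) in the KO library, from 20754 and 7256 UMIs. The log2 ratio was -0.82 (-0.85 to -0.78). Its level was highest in the neutrophil-like cells of both libraries, 4389 CPM in WT and 2724 CPM in KO, a log2 ratio of -0.69 (-0.83 to -0.55). Within these cells the neutrophil markers were closer to each other, at 48527 and 43139 CPM in sum, with *Camp* at 0 in the KO cells. The median depth of the 2 groups differed, at 2798.5 and 1761 UMIs a cell.

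In the monocyte-like class, *Il1b* was at 1956 CPM in WT and 1462 CPM in KO, a log2 ratio of -0.42 (-0.49 to -0.35). Both monocyte clusters were lower in the KO library, cluster 0 with 2544 against 1974 CPM (-0.37) and cluster 5 with 1321 against 1034 CPM (-0.35). The class difference was larger than that of either cluster, as it also depends on their mix. In the macrophage-like class the levels were 641.5 and 410.8 CPM (log2 ratio -0.64, -0.76 to -0.53), and this difference lay mostly in cluster 7, the cluster led by *Igf1* and *Mfge8*, where *Il1b* was at 650.9 CPM in WT and 247.2 CPM in KO (-1.40, -1.61 to -1.19), the latter below the 319.9 CPM of the KO T-cell-like cells. The other macrophage cluster, cluster 3, differed by -0.20 (-0.35 to -0.06). In the DC-like class *Il1b* was at 979.2 and 816.7 CPM, a log2 ratio of -0.26 (-0.35 to -0.17). No cluster of this class was as low, with -0.17 (-0.29 to -0.05) in cluster 2, -0.23 (-0.39 to -0.08) in cluster 8 and 0.20 in cluster 10. The class value thus also depends on the mix of these clusters.

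The direction was not the same everywhere. In cluster 4 *Il1b* was higher in the KO library, at 2525 against 1765 CPM (0.52, 0.34 to 0.69), and in cluster 10 the interval held 0 (0.20, -0.11 to 0.52). The neutrophil markers of cluster 4 moved the same way, from 13328 CPM in sum in WT to 23423 CPM in KO, with single cells between 0 and 98672 CPM in KO. Their part in the higher *Il1b* of this cluster was not tested. Adding cluster 4 to the neutrophil-like cells gave a log2 ratio of -0.64 for the joined cells.

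Cells with an *Il1b* UMI were compared after each cell was thinned to 1000 UMIs, which left out 186 WT and 307 KO cells, 72 and 184 of them in cluster 4. Of the neutrophil-like cells, 95% (92.7 to 96.7) had one in WT and 83.1% (73.7 to 90.2) in KO, and the median cell had 4 and 2 UMIs. Of the monocyte-like cells, 59.8% (55.8 to 63.7) and 49.0% (44.2 to 53.8) had one, with up to 42 UMIs in a WT cell and 27 in a KO cell. The T-cell-like cells, which are not known to make IL-1β, had an *Il1b* UMI in 19.6% (10.2 to 32.4) of WT and 11.1% (5.46 to 19.5) of KO cells, at a median depth of 2284.5 and 1817.5 UMIs before thinning. The macrophage-like shares, 26.9% (23.1 to 31.0) and 21.7% (17 to 27), overlapped this background in their intervals, so that *Il1b* detection in single macrophage-like cells was not separated from free RNA by these shares. The T-cell-like cells had more *S100a8* and *S100a9*, at 3529 and 1011 CPM in sum, than the macrophage-like class (616.3 and 210.7 CPM). This background is thus not an equal one. Without thinning, 75.5% of all WT cells and 61.2% of all KO cells had an *Il1b* UMI, and with thinning 59.4% and 41.4%.

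**Figure D2:**
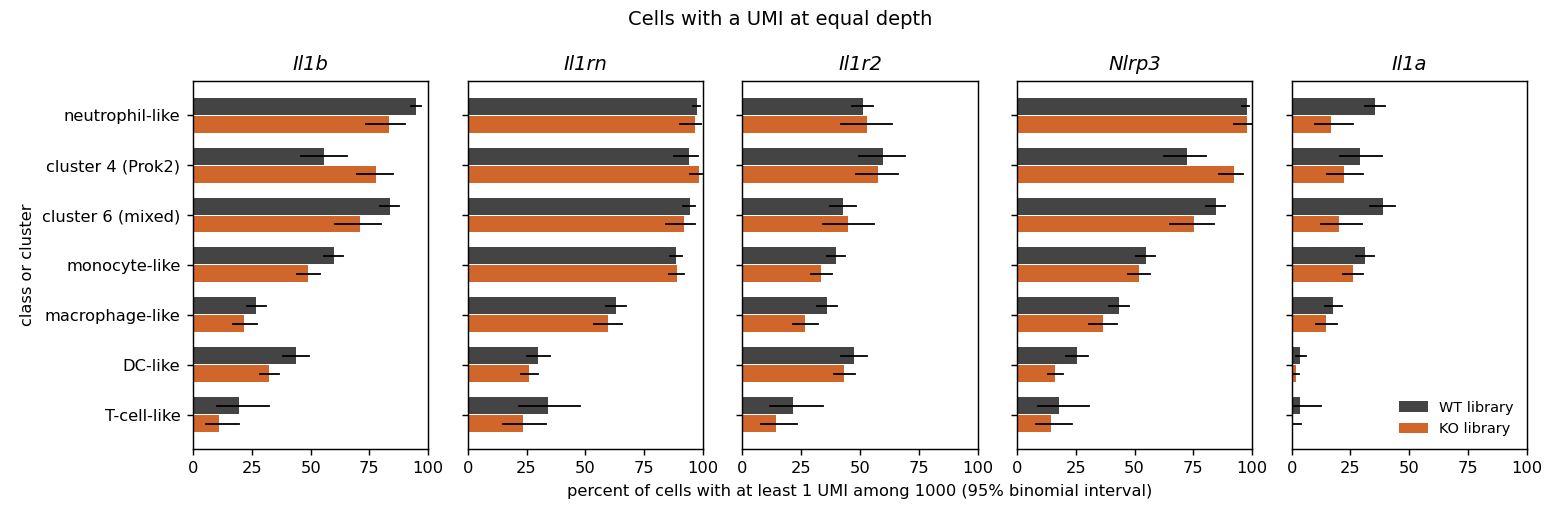
Percent of cells with at least 1 UMI of each of 5 genes after every cell was thinned to 1000 UMIs, by class or cluster, in the WT library (grey) and the KO library (orange), with 95% binomial intervals. For *Il1b*, the KO bar is shorter in every class shown except cluster 4, where it reaches 78.0% against 55.8%. The *Il1rn* bars of the neutrophil-like and monocyte-like cells nearly coincide between libraries.

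*Il1a*, the gene of IL-1α, had the largest fold between libraries of the 9 genes. It was at 390.4 CPM in WT and 168.9 CPM in KO, from 4796 and 1277 UMIs, a log2 ratio of -1.21 (-1.30 to -1.12). Its highest level was in monocyte cluster 0, with 1006 CPM in WT and 623.8 CPM in KO (-0.69, -0.85 to -0.53), whereas the other monocyte cluster was at 271.2 and 278.1 CPM (0.04, -0.22 to 0.29). The neutrophil-like cells had 593.9 CPM in WT and 286.1 CPM in KO (-1.05, -1.50 to -0.63), the latter from 48 UMIs. Cluster 6 had 649.4 and 274.4 CPM (-1.24, -1.60 to -0.90). DC-like cells held little *Il1a*, with 38.5 CPM in WT and 10.6 CPM in KO, from 71 and 30 UMIs.

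*Il1f9*, the gene of IL-36γ, was concentrated in the clusters with neutrophil markers. In WT, cluster 1 held 59.3% of its UMIs and cluster 6 25.1%. In KO, cluster 4 held 43.1% and cluster 1 24.4%. In all kept cells *Il1f9* was at 817 CPM in WT and 419.4 CPM in KO (-0.96, -1.02 to -0.90), but as a mean over cells of per-cell CPM, in which the many shallow KO cells of cluster 4 weigh as much as others, the log2 ratio was -0.10. Within the neutrophil-like cells it was not lower: 3898 CPM in WT and 4602 CPM in KO (0.24, 0.13 to 0.35), or 0.01 with trimmed-mean (TMM) scaling. In cluster 4 it rose with the neutrophil markers, from 1681 CPM in WT to 4405 CPM in KO (1.39, 1.22 to 1.56).

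In the monocyte-like (207.5 and 186.8 CPM), macrophage-like (86.3 and 63.7 CPM) and DC-like classes (103.1 and 48.6 CPM) *Il1f9* was below its level in the T-cell-like cells (314.1 and 307.1 CPM). The T-cell-like cells carried more *S100a8* and *S100a9* than each of these classes, so their level is not an equal background. If the *S100a8* and *S100a9* UMIs of the monocyte-like class all came from neutrophil-like cells of the same library, they would bring 51.1% of its *Il1f9* in WT and 48.7% in KO. For the macrophage-like class the same arithmetic gave 85.7% and 52.3%, and for the DC-like class 72.2% and 49.9%. For *Il1b* it gave 6.11% and 3.69% in the monocyte-like, 13% and 4.8% in the macrophage-like and 8.56% and 1.76% in the DC-like class. With these UMIs taken off, the log2 ratio of *Il1b* was -0.38 in the monocyte-like, -0.51 in the macrophage-like and -0.16 in the DC-like class. That of *Il1f9* was -0.08 in place of -0.15 in the monocyte-like and -0.24 in place of -1.09 in the DC-like class. In the macrophage-like class it changed direction, to 1.30 in place of -0.44, from 12.4 CPM in WT and 30.4 CPM in KO. Whether all these UMIs came from neutrophil-like cells was not tested.

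*Il18* was close to absent from these cells. All WT cells together held 41 UMIs of it and all KO cells 30, 3.34 and 3.97 CPM, and the interval of the log2 ratio ran from -0.48 to 0.96, so that no difference was detectable at this depth. At 1000 UMIs a cell, 0.319% of WT and 0.532% of KO cells had an *Il18* UMI. Among the clusters with at least 50 cells in each library, it had no UMI in clusters 4 and 8 of the WT library. It also had none in cluster 9 of the KO library and in cluster 10 of both. A count of 0 allows up to 13.3 CPM in cluster 4, 4.56 CPM in cluster 8 and 12.8 CPM in cluster 9. In cluster 10 it allows up to 9.08 CPM in WT and 4.64 CPM in KO.

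Among the inhibitors, *Il1rn*, which encodes the IL-1 receptor antagonist, had more UMIs than any other gene of the list: 34483 in WT and 14815 in KO, 2807 and 1960 CPM, a log2 ratio of -0.52 (-0.55 to -0.49). Its highest level was in cluster 4, at 7179 CPM in WT and 8468 CPM in KO, followed by the neutrophil-like cells at 6459 and 7350 CPM (0.19, 0.10 to 0.27, or -0.04 with TMM scaling). The monocyte-like class was at 3404 and 3534 CPM (0.05, 0.00 to 0.10) and the macrophage-like class at 1586 and 1525 CPM (-0.06, -0.12 to 0.01). In these 3 classes *Il1rn* thus differed by at most 1.14-fold between libraries, though macrophage cluster 7 was lower in KO, at 905.1 against 1264 CPM (-0.48, -0.60 to -0.37). DC-like cells had the least, 503.7 CPM in WT and 405.7 CPM in KO (-0.31, -0.44 to -0.19). Cluster 8, which carries the *Xcr1* and *Clec9a* markers of type 1 DCs, had 109.5 and 61.7 CPM. The DC-like log2 ratio also depends on the mix of clusters. It was 0.06 (-0.08 to 0.20) in cluster 2, -0.83 (-1.32 to -0.34) in cluster 8 and -0.54 (-1.08 to 0.01) in cluster 10. With the UMIs that neutrophil RNA would bring by the arithmetic above taken off, the DC-like log2 ratio was -0.05. The T-cell-like cells had 868.1 and 464.9 CPM, above the DC-like class as a whole, and clusters 8 and 10 lay below them. DC cluster 2, at 940.8 and 980.7 CPM, was above them in KO, while in WT the intervals overlapped (877 to 1008 CPM, against 736 to 1018 CPM). The T-cell-like cells had more *S100a8* and *S100a9* (3529 and 1011 CPM in sum) than the DC-like class (620.4 and 153.5 CPM). Their *Il1rn* level is thus not an equal background for DC-like cells. At 1000 UMIs a cell, 88.7% (86.0 to 91.1) of WT and 89.0% (85.7 to 91.8) of KO monocyte-like cells had an *Il1rn* UMI, against 33.9% (21.8 to 47.8) and 23.3% (15.1 to 33.4) of the T-cell-like cells.

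*Il1r2*, the decoy receptor gene, had another distribution. In WT, it was highest in monocyte cluster 5 (1787 CPM), DC cluster 8 (1699 CPM) and cluster 4 (1606 CPM), and it was low in monocyte cluster 0 (329.8 CPM) and DC cluster 10 (99.9 CPM). In KO the order of the extremes was similar, with 1499 CPM in cluster 8, 1346 CPM in cluster 5, 1264 CPM in cluster 4, and 171.6 and 192.0 CPM in clusters 0 and 10. The neighbours cluster 5 and cluster 8 had overlapping intervals in WT (1709 to 1866 and 1601 to 1802 CPM). Over all kept cells *Il1r2* was at 842 CPM in WT and 784.7 CPM in KO (-0.10, -0.15 to -0.06). The T-cell-like cells had 456.9 and 277.2 CPM, of which the neutrophil-derived share by the arithmetic above was 19.6% and 11.4%. Whether they expressed *Il1r2* themselves was not tested.

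*Il18bp* was a macrophage gene in these cells. The macrophage-like class held 78.2% of its 238 WT UMIs and 79.5% of its 83 KO UMIs. The level there was 43.4 CPM in WT and 33.1 CPM in KO (-0.39, -0.82 to 0.02), an interval that held 0, and cluster 3 was above cluster 7 in both libraries (56.5 and 31.3 CPM in WT, 47.1 and 16.5 CPM in KO). With *Il18* this gave 0.0968 *Il18* UMIs (0.0561 to 0.157) per *Il18bp* UMI in WT macrophage-like cells and 0.197 (0.0997 to 0.360) in KO.

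*Il1rap*, the shared accessory chain, followed the neutrophil-marked clusters, with 178.1 CPM in WT and 184.8 CPM in KO neutrophil-like cells (0.05, -0.53 to 0.59) and 61.9 and 170.9 CPM in cluster 4. In the other 3 classes it was at most 24.7 CPM. Over all kept cells it was at 42.4 and 22.8 CPM (-0.90, -1.16 to -0.65), or -0.24 as a mean of per-cell CPM.

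*Nlrp3* was highest in the neutrophil-like cells of the WT library, at 5382 CPM against 3869 CPM in KO (-0.48, -0.59 to -0.36). In KO its highest level was in cluster 4, at 4534 CPM against 3052 CPM in WT (0.57, 0.44 to 0.70). The monocyte-like class was at 1008 and 909.6 CPM (-0.15, -0.25 to -0.05), the macrophage-like class at 657.9 and 465 CPM (-0.50, -0.61 to -0.39), and the DC-like class at 400.1 and 198.6 CPM (-1.01, -1.17 to -0.85). The DC difference was present in cluster 2 (-0.73) and cluster 8 (-1.29). The neutrophil markers of the DC-like class were also lower in KO, at 946.7 and 239.4 CPM in sum, with *Camp* and *Ltf* at 0 in KO. The T-cell-like cells had 468.3 and 392.4 CPM of *Nlrp3*, above the DC-like class in both libraries, and the highest DC level, 543.2 CPM in cluster 8 of the WT library (488 to 603), overlapped theirs (372 to 581) in its interval. The T-cell-like cells also had more *S100a8* and *S100a9*, at 3529 and 1011 CPM in sum. The DC-like class had 620.4 and 153.5 CPM of these, and its cluster 8 in WT 159.8 CPM. The T-cell-like *Nlrp3* level is thus not an equal background for DC-like cells. With the UMIs that neutrophil RNA would bring by the arithmetic above taken off, the DC-like log2 ratio was -0.74. In all kept cells *Nlrp3* was at 1544 and 735.5 CPM (-1.07, -1.11 to -1.03), or -0.51 as a mean of per-cell CPM. At 1000 UMIs, 97.6% of WT and 97.8% of KO neutrophil-like cells had an *Nlrp3* UMI.

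*Casp1* had 480 WT and 280 KO UMIs, 39.1 and 37.0 CPM (-0.08, -0.30 to 0.14). It was found at like levels in the monocyte-like class (53.7 and 49.6 CPM) and the macrophage-like class (49.2 and 47.6 CPM). In the neutrophil-like cells it had 21 UMIs in WT and 1 in KO, 13.8 and 5.96 CPM. Over the 18 points of the 9 named clusters in both libraries, r between *Casp1* and *Nlrp3* was -0.11, a description only. Monocyte cluster 0 was high in both, with 60.7 CPM of *Casp1* and 1151 CPM of *Nlrp3* in WT and 49.2 and 1124 CPM in KO.

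The 250 bases upstream of the transcription start are shown for *Il1b*, *Il1f9* and *Nlrp3*, 3 of the genes with their highest levels in clusters with neutrophil markers, to set their sequences beside their shared pattern. They are RefSeq windows of the build GRCm38.p6, read 5′ to 3′ on the gene's strand, and the capitals mark matches on either strand to the core of the myeloid factor PU.1 (GAGGAA) or to the NF-kappaB consensus.
Il1b, chr2:129371140-129371389, minus strand: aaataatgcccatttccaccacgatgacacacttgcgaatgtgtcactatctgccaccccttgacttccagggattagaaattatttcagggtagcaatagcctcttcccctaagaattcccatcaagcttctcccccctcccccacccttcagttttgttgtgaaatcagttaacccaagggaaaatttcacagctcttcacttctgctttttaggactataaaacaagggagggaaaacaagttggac
Il1f9, chr2:24186226-24186475, plus strand: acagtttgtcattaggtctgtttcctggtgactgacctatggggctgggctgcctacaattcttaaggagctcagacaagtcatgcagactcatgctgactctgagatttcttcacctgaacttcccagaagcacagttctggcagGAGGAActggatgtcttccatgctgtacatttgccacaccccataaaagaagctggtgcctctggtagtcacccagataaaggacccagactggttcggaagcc
Nlrp3, chr11:59541319-59541568, plus strand: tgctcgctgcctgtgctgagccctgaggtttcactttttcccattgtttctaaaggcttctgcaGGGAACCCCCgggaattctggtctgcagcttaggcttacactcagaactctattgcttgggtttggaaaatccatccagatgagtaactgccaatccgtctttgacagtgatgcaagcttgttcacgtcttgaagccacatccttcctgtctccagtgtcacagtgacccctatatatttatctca
The *Il1f9* window held 1 PU.1 core, this *Nlrp3* window, the more upstream of 2, held 1 NF-kappaB match, the other *Nlrp3* window, not shown, held 3 PU.1 cores, and the *Il1b* window held neither, nor the C/EBP motif TTGCNNAA. No match overlapped another. Of all 32851 RefSeq windows, 23.3% held the PU.1 core, 9.56% the C/EBP motif and 3.90% the NF-kappaB consensus. Among the 10 members these were found for 4, 1 and 1 genes. These matches are a description of the letters and say nothing about binding.

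In the GENCODE annotation of the same build (GRCm38), *Il1b* lies at chr2:129364570-129371139 and *Il1a* at chr2:129299610-129309972, both on the minus strand, and *Il1f9* (chr2:24186476-24193568) and *Il1rn* (chr2:24336853-24351494) on the plus strand of the same chromosome. *Il1r2* is at chr1:40074079-40125231, *Il18bp* at chr7:102014885-102018690 (minus strand), *Casp1* at chr9:5298517-5307265, *Il18* at chr9:50554827-50581840, *Nlrp3* at chr11:59541568-59566956 and *Il1rap* at chr16:26581704-26730117. *Il1b* shares its locus with the antisense gene *Il1bos*, which had 205 UMIs, and *Il18bp* overlaps the end of *Numa1*, which had 446. It is not stated whether the counting used strand, so reads of such pairs could have been counted for either gene.

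**Figure D3:**
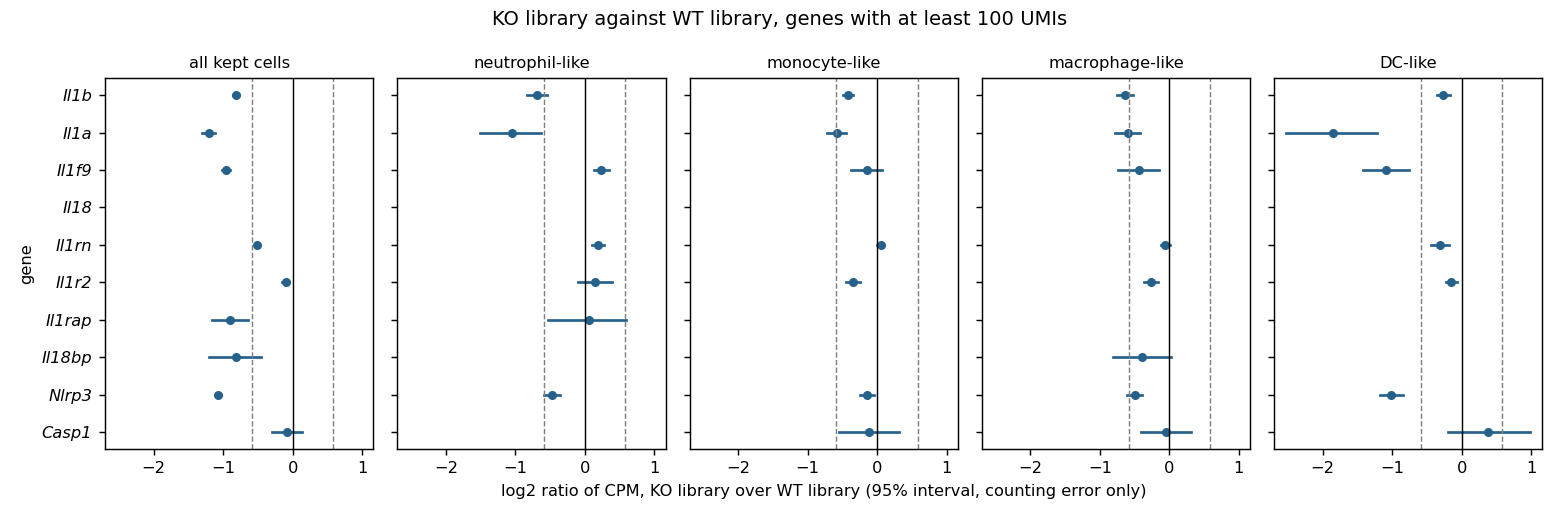
Log2 ratio of the level in the KO over the WT library for the genes with at least 100 UMIs in all kept cells and in each of 4 classes, with 95% intervals for counting error. Dashed lines mark a 1.5-fold difference. *Il1b*, *Il1a*, *Il1f9*, *Il1rn* and *Nlrp3* lie further left in all kept cells than in the monocyte-like class, while *Il1r2* and *Casp1* do not, and *Il1rn* lies near 0 in 3 of the 4 classes.

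Within classes, fewer members passed 1.5-fold than over all cells. In the neutrophil-like cells, 2 of 7 genes were lower (*Il1b* and *Il1a*) and none higher, where 11.2% of all 1753 genes were lower and 10.9% higher. In the monocyte-like class, none of 7 was lower or higher, beside 3.28% and 2.76% of all genes. *Il1a* was just under the limit there, at 1.499-fold lower (-0.58, -0.72 to -0.45), and just over it in the macrophage-like class, at 1.514-fold. In the macrophage-like class, 2 of 8 were lower (*Il1b* and *Il1a*), beside 3.17% lower and 2.07% higher of all genes. In the DC-like class, 3 of 7 were lower (*Il1a*, *Il1f9* and *Nlrp3*), beside 3.12% lower and 3.29% higher. Of these 3, *Il1f9* was no longer 1.5-fold lower once the UMIs that neutrophil RNA would bring by the arithmetic above were taken off. *Il1a* and *Nlrp3* still were, at -1.57 and -0.74. However, *Il1a*, like *Nlrp3*, was not above its level in the T-cell-like cells (45.7 and 8.53 CPM) beyond the intervals. The T-cell-like cells carried more *S100a8* and *S100a9* than the DC-like class, so their level is not an equal background. The median log2 ratio of the members was 0.07, -0.15, -0.41 and -0.31 in these 4 classes, and that of all genes 0.01, 0.03, -0.01 and 0.02. The macrophage-like calls were the least stable: *Il1b* passed 1.5-fold under 5 of 13 other settings (from -0.69 to -0.19) and *Il1a* under 4 of 13 (-0.61 to -0.35). *Il1b* of the neutrophil-like cells passed under 11 of 14 (-0.92 to -0.52) and *Nlrp3* of the DC-like class under 13 of 13 (-1.06 to -0.74). TMM scaling, in place of total UMIs, lowered every log2 ratio by 0.17 over all kept cells and by 0.23 in the neutrophil-like cells.

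**Figure D4:**
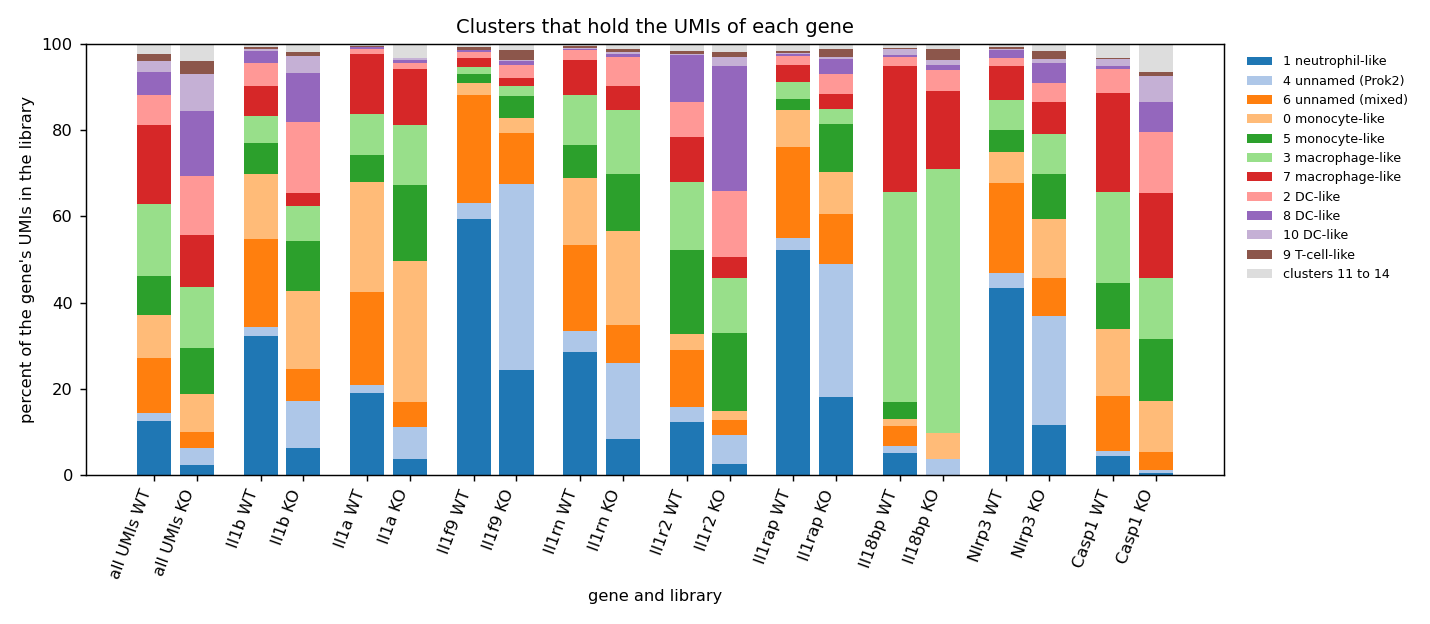
Percent of all UMIs, and of the UMIs of 9 genes, that each cluster held in the WT and the KO library (stacked bars, each summing to 100%). The neutrophil-like cluster 1 held 32.3% of the *Il1b* UMIs in WT and 6.30% in KO, whereas cluster 4 held 1.92% and 10.8%. The DC-like clusters 2, 8 and 10 took a larger part of each KO bar.

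The cells that carried the transcripts differed between libraries. In WT, the neutrophil-like cells were 18.5% of cells (17.1 to 20.1), gave 12.4% of all UMIs and held 32.3% of the *Il1b*, 28.6% of the *Il1rn* and 43.3% of the *Nlrp3* UMIs. In KO they were 4.55% of cells (3.68 to 5.56), gave 2.22% of all UMIs and held 6.30%, 8.32% and 11.7%. These cells are cluster 1 alone, and the unnamed cluster 4, with 8 of 14 neutrophil markers, went the other way. Cluster 4 was 6.53% of WT and 15.6% of KO cells. It held 1.92% and 10.8% of the *Il1b*, 4.71% and 17.7% of the *Il1rn*, and 3.64% and 25.3% of the *Nlrp3* UMIs. The unnamed cluster 6, with 9 of 14 neutrophil markers, went the same way as cluster 1. It was 12.6% of WT and 4.45% of KO cells. Cluster 6 held 20.6% and 7.41% of the *Il1b*, 20.1% and 8.63% of the *Il1rn*, and 20.7% and 8.83% of the *Nlrp3* UMIs. Its *Il1b* level was 2708 CPM in WT and 1995 CPM in KO (-0.44, -0.57 to -0.31). DC-like cells held 8.69% of the *Il1b* UMIs in WT and 31.7% in KO, and monocyte-like cells 22.1% and 29.7%. Shares of cells in 1 pooled and sorted library per genotype can be set by the sort and by cell capture as well as by the tissue, and these cannot be told apart.

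When the KO levels of every cluster were weighted by the WT clusters' shares of all UMIs, the log2 ratio of *Il1b* over all cells was -0.47 in place of -0.82, and with KO shares it was -0.29. That of *Nlrp3* was -0.38 and -0.26 in place of -1.07, and that of *Il1a* -0.77 and -0.61 in place of -1.21. For *Il1f9*, *Il1rn* and *Il1rap* it was 0.15, 0.09 and 0.04 with WT shares, in place of -0.96, -0.52 and -0.90, values closer to 0 than the shift that TMM scaling brings. With KO shares they were 0.35, 0.06 and 0.17, of which that of *Il1f9* exceeded that shift and that of *Il1rap* was about equal to it. For *Il18bp* it was -0.65 and for *Il1r2* -0.24. At WT levels, the change of shares alone gave -0.53 for *Il1b* and -1.31 for *Il1f9*.

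Within a single type of cell, a ratio of 2 genes in the same cells does not depend on how many cells there were. Over all kept cells, or over a class of several clusters, it also depends on the mix of clusters. Each RNA counts once in a 3′ UMI library whatever its length, but capture can differ between genes, so these ratios were compared between cells and libraries and not read as molecule numbers. Over all kept cells there were 0.602 *Il1b* UMIs (0.592 to 0.612) per *Il1rn* UMI in WT and 0.490 (0.476 to 0.504) in KO. In the neutrophil-like cells it was 0.680 (0.659 to 0.701) in WT and 0.371 (0.332 to 0.413) in KO. In the monocyte-like class it was 0.575 (0.554 to 0.596) and 0.414 (0.393 to 0.435), and in the macrophage-like class 0.404 (0.387 to 0.423) and 0.269 (0.249 to 0.291). In each of these classes the KO interval lay below the WT interval. In the DC-like class *Il1b* exceeded *Il1rn*, at 1.94 (1.79 to 2.11) and 2.01 (1.87 to 2.16), and the intervals overlapped. Its clusters moved in opposite directions, though with overlapping intervals. Cluster 2 was at 1.39 (1.27 to 1.53) in WT and 1.19 (1.09 to 1.29) in KO. Cluster 8 was at 7.75 (6.05 to 10.0) and 11.7 (9.19 to 15.2), and cluster 10 at 2.40 (1.73 to 3.39) and 4.01 (3.08 to 5.29). Cluster 4 was also higher in KO, with 0.246 (0.220 to 0.274) in WT and 0.298 (0.275 to 0.323) in KO. So was T-cell-like cluster 9, at 0.414 and 0.688, with overlapping intervals.

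The decoy receptor gave a different picture. There were 5.33 *Il1b* UMIs (5.02 to 5.66) per *Il1r2* UMI in WT neutrophil-like cells and 2.99 (2.48 to 3.61) in KO. In monocyte cluster 0 it was 7.71 (6.95 to 8.58) and 11.5 (9.5 to 14), where *Il1r2* was below its level in the T-cell-like cells in both libraries, and in monocyte cluster 5 it was 0.740 (0.691 to 0.791) and 0.768 (0.701 to 0.842). The 2 monocyte clusters thus differed from each other more than the libraries did.

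**Figure D5:**
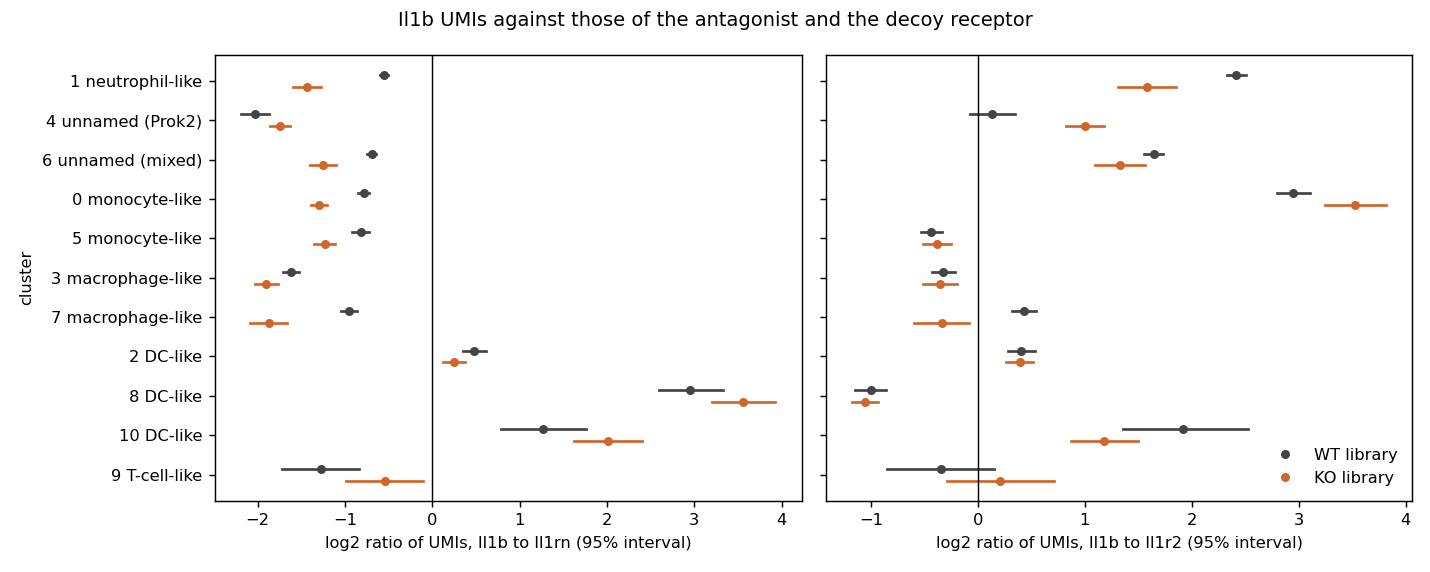
Log2 ratio of *Il1b* UMIs to *Il1rn* UMIs (left) and to *Il1r2* UMIs (right) in 11 clusters, in the WT (grey) and KO (orange) library, with 95% intervals for counting error. Left of the line at 0, *Il1b* has fewer UMIs than the inhibitor; DC clusters 2, 8 and 10 lie to the right in the left panel, and the KO point lies left of the WT point in clusters 0, 1, 2, 3, 5, 6 and 7.

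In single cells at 1000 UMIs, *Il1b* and *Il1rn* were found together in most neutrophil-like cells. Of the WT neutrophil-like cells, 92.6% had both and 4.82% had *Il1rn* alone, and of the KO cells 79.8% had both and 16.9% *Il1rn* alone. In the monocyte-like class, 53.9% of WT and 44.9% of KO cells had both, and 34.9% and 44.2% had *Il1rn* alone. In the macrophage-like class, 19.6% and 14.8% had both and 43.5% and 44.8% had *Il1rn* alone. In DC cluster 8, 29.5% of WT and 25.5% of KO cells had *Il1b* without *Il1rn*. The pair *Il1b* and *Nlrp3* was found in 36.8% of WT and 29.98% of KO monocyte-like cells.

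Over the 18 points of the 9 named clusters of both libraries, the genes whose log2(CPM + 10) was most like that of *Il1b* were *Mefv* (r = 0.91), *Gfod1* (0.89) and *Cd24a* (0.88). For *Il1a* they were *Cd14*, *Clec5a* and *Prdx5* (0.96 each), for *Il1rn* *Cebpb*, *Gda* and *Clec4e* (0.98 each), and for *Nlrp3* *Trem1* (0.97), *Pik3ap1* and *Irak2* (0.96 each). For *Il1f9* they were *Csf3r* (0.99), *Sh2d3c* and *Cd300lf* (0.98 each), and for *Il1rap* *Tgif1* (0.98), *Trem3* and *Upp1* (0.97 each). *Il1r2* had no gene as close: *C130050O18Rik* (0.71), *Heatr6* (0.68) and *Nrros* (0.64). For *Casp1* they were *Gng5* (0.91), *Lgmn* and *Clcn5* (0.90 each), and for *Il18bp* *Cd22* (0.91), *H2-M2* (0.89) and *Gm13391* (0.88). Points of 1 library share its depth and free RNA, so these values are descriptions.

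Of 41 other genes of the pathway, 24 had at least 100 UMIs over all kept cells, of which 3 were at least 1.5-fold lower in KO and 1 was higher, beside the 5.7% lower and 10.2% higher of all genes, and their median log2 ratio was -0.26, against 0.13 for all genes. The lower genes were *Irak3*, which encodes an inhibitor of IL-1 and Toll-like receptor signalling (142.1 and 68.0 CPM; -1.06, -1.21 to -0.92), *Il18rap*, an IL-18 receptor chain (18.2 and 11.4 CPM; -0.68, -1.06 to -0.32), and *Txnip*, whose product binds thioredoxin (305.9 and 197.9 CPM; -0.63, -0.72 to -0.54). In the neutrophil-like cells, the log2 ratio was -0.05 (-0.39 to 0.28) for *Irak3*, 0.48 (-0.26 to 1.15) for *Il18rap* and 0.29 (0.10 to 0.48) for *Txnip*. In the monocyte-, macrophage- and DC-like classes it was -0.02, -0.14 and -0.95 for *Irak3*, and 0.32, -0.42 and -0.82 for *Txnip*. *Il18rap* had few UMIs in those classes, and *Irak3* had 34 in WT and 27 in KO DC-like cells, too few to be counted. The higher gene was *Serpinb1a*, an inhibitor of neutrophil elastase (69.2 and 121.3 CPM, 0.81, 0.67 to 0.95). The DC-like class held 724 of its 850 WT UMIs and 825 of its 917 KO UMIs. Within that class *Serpinb1a* was lower in KO, at 393.0 and 292.6 CPM (-0.43, -0.57 to -0.28). Within the classes, only *Txnip* in the DC-like class passed 1.5-fold. The genes counted were 7, 15, 18 and 14 in the neutrophil-, monocyte-, macrophage- and DC-like classes. The shares of all genes were those given above for the members. *Txnip* was at 53.7 and 30.5 CPM in the DC-like class, against 1257 and 1538 CPM in the neutrophil-like cells. For *Irak3* these levels were 18.5 and 9.57 CPM, against 511.4 and 494.8 CPM. The neutrophil markers of the DC-like class were lower in KO (946.7 and 239.4 CPM in sum). The part of neutrophil RNA in these 2 DC-like ratios was not tested. The adaptor genes *Myd88* (119.7 and 93.7 CPM) and *Pycard* (21.2 and 26.2 CPM) and the pore gene *Gsdmd* (20.1 and 26.2 CPM) differed by less than 1.5-fold. None of the other 5 cytokine genes of the family, *Il33* among them with 2 and 6 UMIs, reached 100 UMIs.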

How the data were processed

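The authors deposited, for each library, a table of raw UMI counts with 1 row per gene and 1 column per barcode. The kit was SeekOne MM 3′ per the extraction protocol, whereas a label names 10x Genomics; the submitters' processing notes name Cell Ranger 2.1.1 and mm10, and the counting settings are not given in the sources used here. The filter kept cells in which 200 to 4000 genes were found and mitochondrial UMIs did not exceed 5%. These were clustered with R 4.3.3 and Seurat 5.3.0 (LogNormalize to 10000, 2000 variable features without the members, other pathway genes and sex-linked genes, 20 principal components, resolution 0.7). Clusters were named from marker lists (at least 3 markers 2-fold above the other cells). Scrublet (scanpy 1.11.5) called 0 WT and 1 KO barcode, which is too few for the caller to have worked, and no doublets were removed. UMIs were summed per cluster or class and library in Python 3.11.15; levels are CPM with exact Poisson intervals, ratios carry exact conditional intervals, and shares of cells exact binomial (Clopper-Pearson) intervals after thinning (seed 1), all at 95%. Counts past 1.5-fold used 0.5 added UMIs. The intervals and fold calls were checked on simulated Poisson counts, which held no variation between cells, mice or libraries. That check therefore covers counting error only. The named genes were the 10 members, other pathway genes with at least 100 UMIs that passed 1.5-fold over all cells or were listed as examples after their values were seen, and the 3 genes most like each member. Of the gene identifiers, 32158 are in GENCODE M21. TMM factors came from edgeR 4.0.16. The members and lists were chosen with earlier results of these data known. The Scrublet, cell filter, clustering, scaling and thinning alternatives are given in the closing section.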

Additional observations from a re-analysis of the deposited data

Results flagged for a closer look

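For 2 genes, some clusters with at least 50 cells in each library and at least 100 UMIs of the gene were at least 1.5-fold higher in the KO library and others at least 1.5-fold lower. The difference between clusters was not tested, since each library is a single pool. For *Il1f9*, the log2 ratio of the KO over the WT library was 1.39 in cluster 4, and -0.79 in DC-like cluster 2 and -0.64 in macrophage-like cluster 7. The share of *Il1f9* that neutrophil RNA would bring, by its *S100a8* and *S100a9* UMIs, was 60.5% in WT and 54.0% in KO in cluster 4, 78.6% and 44.9% in cluster 2, and 96.5% and 61.0% in cluster 7, and *Il1f9* of clusters 2 and 7 was below its level in the T-cell-like cells. The T-cell-like cells carried more *S100a8* and *S100a9* than clusters 2 and 7. For *Il1r2*, it was 0.94 in DC-like cluster 10, from 33 and 124 UMIs, and -0.94 in monocyte-like cluster 0, -0.63 in macrophage-like cluster 7 and -0.72 in T-cell-like cluster 9. *Il1r2* of clusters 0 and 10 was below its level in the T-cell-like cells in both libraries. Neutrophil RNA would bring only a smaller part of that T-cell-like level. Whether the T-cell-like cells expressed *Il1r2* themselves was not tested, so their level is not a known background.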

How the results depend on the processing

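No paired analysis was possible because each genotype had 1 library, and no replicate could be left out. The log2 ratio of *Il1b* was negative under all 7 alternatives for all kept cells, all 14 for the neutrophil-like and all 13 for the monocyte-like class. Over all kept cells it was -0.94 with mitochondrial UMIs up to 10%, -0.92 with no filter on cells, -0.63 as a mean of per-cell CPM and -0.98 with TMM scaling. In the neutrophil-like class it was -0.92 with TMM scaling and, in an alternative chosen after seeing the data, -0.52 with clusters 4 and 6 added. In the monocyte-like class it was -0.31 with 500 to 6000 genes and -0.29 with 10 principal components. The count of members at least 1.5-fold lower was 2 at a 2-fold limit (*Il1a* and *Nlrp3*; 1.71% of all genes) and, chosen after seeing the data, 3 without clusters 1, 4 and 6 (4.25%). It was 6 with at least 20 UMIs (6.76%) or 5 added UMIs (5.18%) and 7 with TMM scaling (9.37%) or without cluster 4 (7.72%), and the count of higher members was 0 under all 6. The share of cells with an *Il1b* UMI was 70.5% in WT and 50% in KO at 2000 UMIs, and 75.5% and 61.2% without thinning, settings that also differ in the cells left out (500 and 757 at 2000 UMIs). Of the 27 genes named as most like a member, 16 were also named with 1 CPM added in place of 10. The 46 ratios had 552 alternative values, of which 459 lay within the interval of the reported value, 92 did not and 1 reversed. A reversal was counted only for ratios of at least 1.5-fold. It was *Il18bp* in the monocyte-like class, from 18 UMIs in all, at 0.54 as a mean of per-cell CPM. Smaller ratios also changed sign: *Il1f9* in the macrophage-like class, at -0.44, kept its sign under 10 of 13 settings and reached 1.30. Of 36 alternative values for other shares of cells, 33 lay outside the interval of the reported value. Where no cause is named, the cause was not tested. Removing the Scrublet calls removed no kept cell. With 71 *Il18* UMIs in all, depth limited what could be said of that gene.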
